A study of Homo sapiens with 12 samples.

Results

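The transcriptomes of cells given SGI-1027 alone and of cells given everolimus alone were compared directly, gene by gene, to find what separates the drugs rather than what either does against vehicle. The comparison used 6 of the 12 libraries of the series, 3 from the SGI-1027 group and 3 from the everolimus group. The cells were 786-O, an established human clear cell renal carcinoma line that lacks functional VHL, and every group was treated for 24 h. The SGI-1027 group received 1.5 µM SGI-1027. The everolimus group received 5 µM everolimus by the sample characteristics, although the series' design text gives 10 µM for that group. Vehicle (DMSO) libraries and libraries given 5 µM everolimus with 1.5 µM SGI-1027 (the combination group) served as reference points. The drugs were each used at 1 dose and 1 time in 1 cell line, and the doses differ, so a difference between them is a difference between these treatments. Of 17085 genes in the count table, 12841 passed the expression filter and were tested. Whether replicate libraries stem from separate cultures is not stated, so p values reflect the spread between these libraries alone.

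Everolimus binds the immunophilin FKBP12, encoded by FKBP1A, and the complex inhibits mTORC1, the kinase complex that couples nutrients and growth factors to protein synthesis, ribosome production and the repression of lysosome genes. SGI-1027 is a quinoline-based inhibitor of DNA methyltransferases that the study examined as an inducer of methuosis, a cell death with large vacuoles formed by macropinocytosis. Several programmes named here are read from their target genes. Interferon-stimulated genes are induced by interferon signalling and encode antiviral sensors and effectors. ATF4 is the transcription factor of the integrated stress response and drives amino acid synthesis, amino acid uptake and tRNA charging. Genes of mitosis are expressed in G2 and M phase.

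The libraries held 37046231 to 41516976 counts. Among the 6 libraries compared, 1 stood apart. A chi-square statistic of the counts, divided by the number of genes, was 16.6 and 16.3 between SGI-1027 replicate 3 and its fellow replicates, against 3.05 between those and 3.38 to 3.6 within the everolimus group. Against the mean of the other replicates, SGI-1027 replicate 3 read 0.086 higher on the log2 scale in the fifth of genes with the highest transcript GC content and 0.071 lower in the fifth with the lowest. The fits of SGI-1027 against everolimus and against DMSO were repeated without it. Among the vehicle libraries DMSO replicate 1 had a like tilt, 0.108 higher in the fifth with the highest GC content and 0.080 lower in the lowest. Without DMSO replicate 1, which enters the filter and the pooled spread, the direct comparison and those with DMSO were also repeated, a choice made after seeing the data. Most markers of the labelled cell type were expressed. The summed level of 11 renal carcinoma markers was 10600 to 10900 CPM (counts scaled to a fixed library size) with everolimus and 10700 to 11200 with SGI-1027, whereas 20 markers of other cell types summed to 2.53 to 3.25 and 3.2 to 3.75 CPM. VIM made up most of the renal sum, at 7010 to 7210 CPM with everolimus and 6880 to 7380 CPM with SGI-1027. NDUFA4L2, on the same list, was nearly absent, at no more than 0.052 CPM with everolimus and 0.076 CPM with SGI-1027. PTPRC of leukocytes and CD3E of T cells had no counts in either group. Among the 5 tested markers of other types, only DES, a muscle gene, passed, at under 1 CPM in every library, and it did not pass without SGI-1027 replicate 1, everolimus replicate 2 or everolimus replicate 3.

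A total of 196 DEGs were upregulated with SGI-1027 relative to everolimus and 34 were upregulated with everolimus relative to SGI-1027, with DEGs defined by a log2 fold change of 1 or more in size at an unadjusted p under 0.05. These are 1.53% and 0.265% of the tested genes. Many were scarce: 85 of the 196 and 16 of the 34 had a mean under 1 CPM in both groups. At a mean of at least 50 counts over the 6 libraries, 83 and 11 DEGs were left. At an adjusted p under 0.05, whatever the size of the difference, 1663 genes were higher with SGI-1027 (13.0%) and 1221 were higher with everolimus (9.51%), and the median log2 fold change over all tested genes was 0.0036. Of the DEGs, 161 and 23 also passed this adjusted threshold. Without SGI-1027 replicate 3 the DEGs were 186 and 43, of which 163 and 25 were among the original ones, and the adjusted calls were 1394 and 996, of which 1296 and 840 were. Without DMSO replicate 1 the DEGs were 210 and 37 and the adjusted calls 1876 and 1355. Leaving out everolimus replicate 1 lowered the genes higher with everolimus at an adjusted p under 0.05 to 773. Just inside the fold threshold were CD101 at 1.01 and LIPH at -1.01, and just outside it CRYAB at 0.997 and DGKB at 0.998. Log2 fold changes below are SGI-1027 over everolimus, so positive values are higher with SGI-1027, and levels are CPM normalized with TMM factors.

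**Figure D1:**
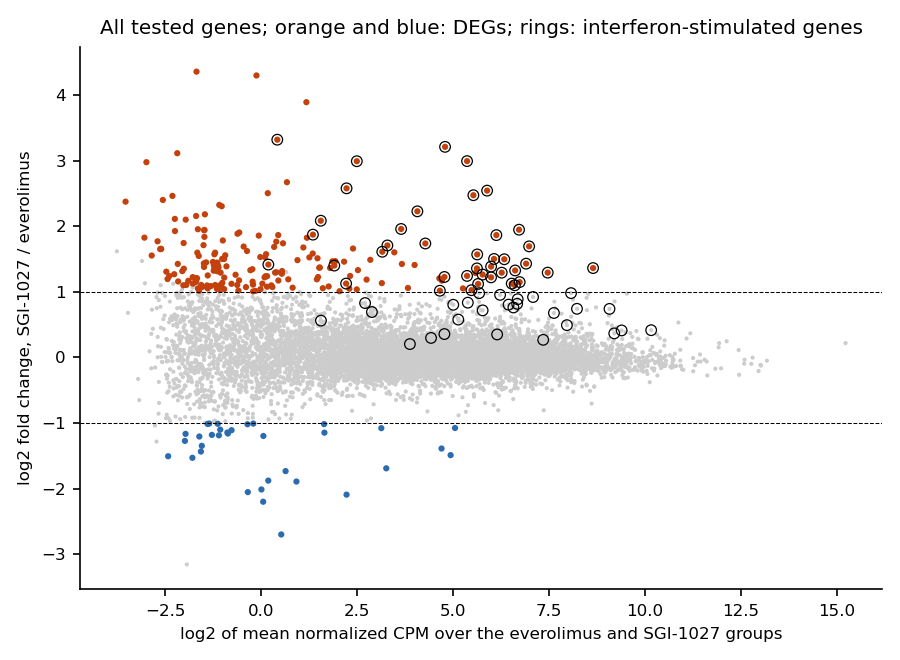
Log2 fold change of SGI-1027 over everolimus for the 12841 tested genes (y axis) against the log2 of their mean normalized CPM in the 2 groups (x axis). The 196 DEGs higher with SGI-1027 are orange, the 34 higher with everolimus are blue, dashed lines mark log2 fold changes of 1 and -1, and rings mark the 67 interferon-stimulated genes, which all lie above 0.

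The interferon-stimulated genes were the group that set SGI-1027 farthest apart from everolimus. All 67 tested members were higher with SGI-1027 at an adjusted p under 0.05, where 13.0% of all tested genes were, and in all 67 every SGI-1027 library was above every everolimus library, as in 21.0% of all tested genes. Their median log2 fold change was 1.15, with a range of 0.20 to 3.32, and 40 of them were DEGs. Without SGI-1027 replicate 3, which read 0.17 higher than its fellow replicates over these genes, the median was 1.10 and 66 members passed. The sequences below are the stretches of promoter, read from RefSeq (GRCh38.p14) 5′ to 3′ on the gene's strand, that hold the interferon-stimulated response element in the 4 members with the smallest p among those with a match. Capitals mark 1 match to the element, searched on both strands as GAAA repeated after any 2 bases. The ISG15 stretch holds a further match that overlaps the marked one and is only partly in capitals.
IFIT1: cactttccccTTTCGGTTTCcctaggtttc
IFI44L: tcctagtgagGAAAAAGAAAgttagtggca
ISG15: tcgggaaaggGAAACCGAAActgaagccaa
IFIT3: tttaaattagTTTCACTTTCcagtttcctc

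These stretches lie upstream of the start sites, at chr10:89392510-89392539, chr1:78620365-78620394, chr1:1013380-1013409 and chr10:89327865-89327894, all on the plus strand. IFIT1, which binds viral RNA that lacks the host cap methylation, measured 44.1, 42.2 and 43.7 CPM in the everolimus libraries and 168, 157 and 177 CPM in the SGI-1027 libraries (log2 fold change 1.95 ± 0.061 (SE), adjusted p = 3.26e-13). IFI44L, an interferon-induced antiviral gene, measured 17.9, 16.8 and 17.3 CPM with everolimus and 93.1, 92.2 and 118 CPM with SGI-1027 (log2 fold change 2.54 ± 0.081 (SE), adjusted p = 3.26e-13). ISG15, the ubiquitin-like modifier, measured 64.4, 55.7 and 58.8 CPM with everolimus and 186, 183 and 210.0 CPM with SGI-1027 (log2 fold change 1.69 ± 0.056 (SE), adjusted p = 3.45e-13). In each of these 3 genes every SGI-1027 library lay far above every everolimus library, whereas everolimus was above DMSO by much less: the DMSO libraries read 32.8, 40.6 and 36.00 CPM for IFIT1.

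The largest fold changes among well-counted genes, those averaging 50 or more counts over the 6 libraries, were also mostly antiviral. XAF1, a pro-apoptotic interferon target, measured 0.297, 0.195 and 0.235 CPM with everolimus and 2.27, 2.33 and 2.72 CPM with SGI-1027 (log2 fold change 3.32 ± 0.35 (SE), adjusted p = 1.72e-06). MX2, a dynamin-like GTPase that restricts retroviruses, measured 5.11, 5.28 and 5.80 and 46.2, 42.9 and 60.9 CPM (log2 fold change 3.21 ± 0.13 (SE), adjusted p = 2.86e-12), and its DMSO libraries 2.52, 4.06 and 3.40 CPM. OAS2, one of the synthetases that make 2-5A from double-stranded RNA, measured 9.38, 8.28 and 9.93 and 67.00, 67.1 and 85.5 CPM (log2 fold change 2.99 ± 0.11 (SE), adjusted p = 1.35e-12). SGI-1027 replicate 3 was the highest library in each of these genes, and without it their log2 fold changes were 3.23, 3.04 and 2.87. EPSTI1, IFITM1, OAS1 and IFI27 followed with log2 fold changes of 2.99, 2.58, 2.47 and 2.23. The groups did not overlap for any of these genes.

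By role, the 6 tested sensors of foreign nucleic acid had a median log2 fold change of 1.02, the 32 effectors 1.33, the 11 genes of the ISG15 pathway and its ADP-ribosylating partners 0.98, the 15 signalling genes 0.82 and the 3 chemokines 1.42. In comparisons with the same DMSO libraries, which are therefore not independent, 38 of the 67 genes were higher and 3 were lower with everolimus than with DMSO, where 27.2% and 29.2% of all tested genes were, and all 67 were higher with SGI-1027, where 32.0% were (30.6% of all genes were lower). With everolimus 39 were higher and 7 lower without SGI-1027 replicate 3, and 32 were higher and 6 lower without DMSO replicate 1. With SGI-1027 66 were higher in either of these fits. USP18, the protease that removes ISG15 and restrains interferon receptor signalling, lay on opposite sides of DMSO: it measured 5.59, 5.42 and 4.36 CPM with everolimus, 5.82, 6.68 and 6.81 CPM with DMSO and 20.6, 19.02 and 20.2 CPM with SGI-1027. SAMHD1, which depletes the nucleotide pool, had the same order, with 33.1, 34.7 and 37.1 CPM, 39.4, 45.95 and 40.3 CPM and 95.1, 92.2 and 110.0 CPM. In the combination group 43 of the 67 genes read above every library of either single drug. The same position was held by 35.6% of the 1636 genes higher with SGI-1027 whose drug libraries did not overlap.

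Among 10378 tested genes with a RefSeq promoter, taken as 250 bases before to 50 bases after the start, 3.04% held the interferon-stimulated response element. The share was 21.6% among the 139 DEGs higher with SGI-1027 that have a promoter, 0 of 26 among the DEGs higher with everolimus, and 58.5% among 53 interferon-stimulated genes. Of the other 10 elements, the amino acid response element (TGATGNAA) came next relative to all genes, in 5.04% of those DEGs against 1.72%, and the CCAAT box was in 38.1% against 36.9%. These matches are letters in a window and not measured binding.

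Antigen presentation genes, several of them interferon targets, moved in the same direction by less. Of 26 tested, 13 were higher with SGI-1027 and none was lower, against 13.0% and 9.51% of all tested genes, with a median of 0.20. All 7 class I genes passed, from 0.12 to 0.89. NLRC5, the transactivator of class I genes, measured 17.9, 18.6 and 16.3 CPM with everolimus and 31.5, 31.6 and 34.4 CPM with SGI-1027 (log2 fold change 0.89 ± 0.075 (SE), adjusted p = 8.75e-08). TAP1, a subunit of the peptide transporter, measured 98.6, 101 and 108 and 144, 155 and 151 CPM (log2 fold change 0.55 ± 0.049 (SE), adjusted p = 1.48e-07). HLA-F measured 10.97, 9.92 and 11.1 and 18.4, 17.4 and 20.03 CPM (log2 fold change 0.80 ± 0.078 (SE), adjusted p = 5.18e-07). All 3 had groups that did not overlap, and for NLRC5 the DMSO libraries lay between the drugs at 22.8, 19.9 and 21.9 CPM.

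The mitosis genes separated the drugs in the opposite direction. Of 58 tested, 56 were lower with SGI-1027 than with everolimus, where 9.51% of all tested genes were, and none was higher. In 56 every SGI-1027 library was below every everolimus library, as in 18.5% of all tested genes. The median log2 fold change was -0.37, the range -0.81 to -0.13, and no member was a DEG. Leaving out SGI-1027 replicate 3 gave 57 of 58 and a median of -0.36. The promoters of the 4 members with the smallest p and a match are shown with the CCAAT box (CCAAT on either strand, the NF-Y element common in G2/M genes) in capitals.
KIF20A: tccctatctgATTGGccgaacgaac
CCNB2: gcagggccgcCCAATggggcgcaag
NCAPD2: tgccttgctaATTGGtgcgtgttgt
CDC20: tttgaaggagCCAATaggcgctcgg

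These stretches are at chr5:138179035-138179059, chr15:59105082-59105106, chr12:6494062-6494086 and chr1:43358916-43358940, on the plus strand, and the CCAAT box was in 74.5% of 51 mitosis promoters against 36.9% of all. In the other lists searched its share ranged from 30.0% (ERK feedback genes) to 64.0% (cholesterol genes), with 55.6% of 45 replication promoters. The element is therefore not particular to the mitosis list. KIF20A, a kinesin of the central spindle, measured 209, 208 and 212 CPM with everolimus and 115, 124 and 120.2 CPM with SGI-1027 (log2 fold change -0.81 ± 0.037 (SE), adjusted p = 2.49e-11). CCNB2, cyclin B2, measured 118, 117 and 111 and 73.8, 77.6 and 71.5 CPM (log2 fold change -0.63 ± 0.043 (SE), adjusted p = 4.9e-09). NCAPD2, a condensin subunit, measured 325, 327 and 338 and 229, 228 and 232 CPM (log2 fold change -0.52 ± 0.038 (SE), adjusted p = 1.14e-08). The groups were fully separate in all 3, and both lay below DMSO, which read 279, 280.2 and 275 CPM for KIF20A. Against the shared DMSO libraries 49 of the 58 genes were lower with everolimus and 57 were lower with SGI-1027, where 29.2% and 30.6% of all tested genes were, with medians of -0.38 and -0.78. In every role of the list, from kinases (12 of 12 lower) to kinetochore (10 of 10), spindle (11 of 11) and motor genes (9 of 11), most members were lower with SGI-1027. In bulk libraries, fewer cells in mitosis and less of these RNAs per cell cannot be told apart.

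**Figure D2:**
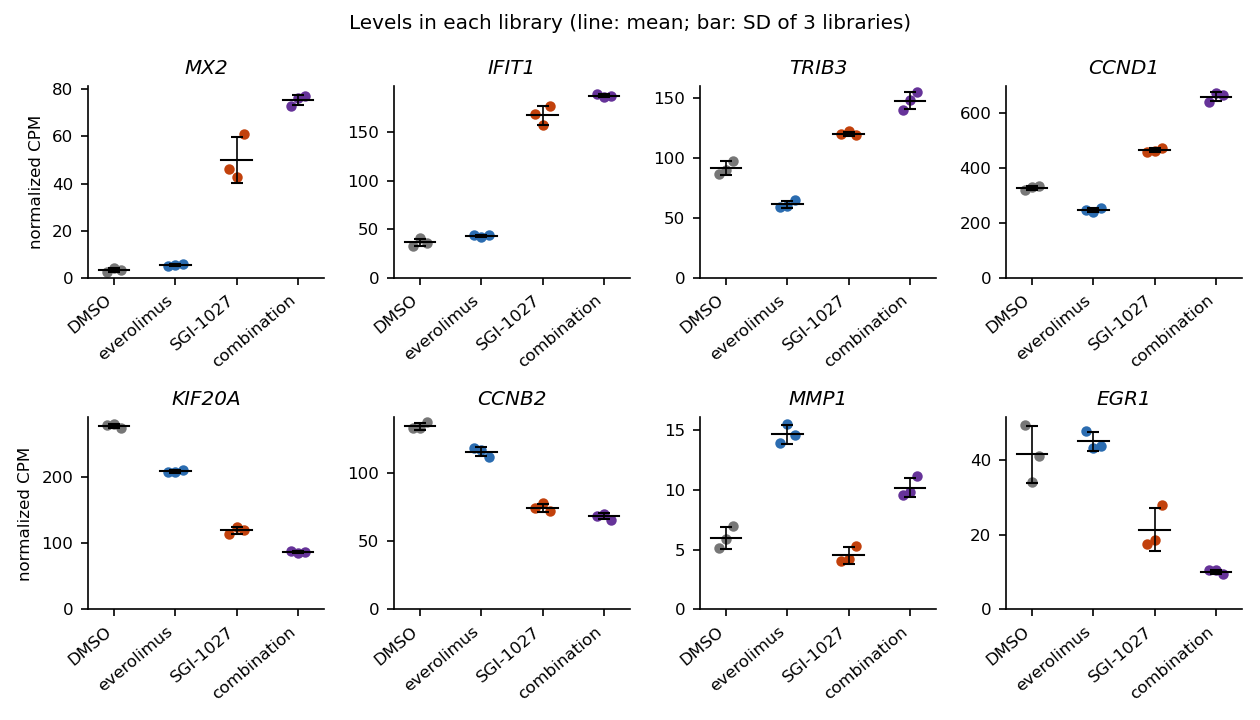
Normalized CPM (y axis, from 0) of 8 genes in each library of the 4 groups (x axis); points are libraries, the line is the mean and the bar the SD of 3 libraries. MX2 and IFIT1 are high only where SGI-1027 was given, TRIB3 and CCND1 lie below DMSO with everolimus and above it with SGI-1027, KIF20A and CCNB2 fall further with SGI-1027, and MMP1 and EGR1 are lower with SGI-1027 than with everolimus.

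Replication genes did not follow the mitosis genes. Of 54 tested, 13 were higher and 9 lower with SGI-1027, against 13.0% and 9.51% of all tested genes, with a median of 0.02. Even so, 49 of the 54 were lower than DMSO with each drug (29.2% of all tested genes with everolimus and 30.6% with SGI-1027). CDC6, a licensing factor of replication origins, measured 36.2, 36.01 and 33.8 CPM with everolimus and 46.4, 47.4 and 43.7 CPM with SGI-1027 (log2 fold change 0.38 ± 0.053 (SE), adjusted p = 4.07e-05). TYMS, thymidylate synthase, went the other way with 238, 234 and 237 and 184, 196 and 181 CPM (log2 fold change -0.34 ± 0.038 (SE), adjusted p = 3.57e-06). Their libraries did not overlap, so members of the list differed in direction. E2F1 was higher with SGI-1027, by 0.31 (adjusted p = 0.000332).

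Among 18 tested G1 cyclins and CDK inhibitors, 5 were higher and 4 lower with SGI-1027 (3 higher without everolimus replicate 2), against 13.0% and 9.51% of all tested genes. CCND1, cyclin D1, which is also a HIF2 target in VHL-deficient kidney cells, measured 249, 241 and 254 CPM with everolimus, 321, 332 and 335 CPM with DMSO and 461, 461 and 475 CPM with SGI-1027 (log2 fold change 0.91 ± 0.036 (SE), adjusted p = 2.56e-12). CDKN1A, the p21 inhibitor, measured 23.9, 27.3 and 24.8 and 39.6, 41.5 and 36.99 CPM (log2 fold change 0.63 ± 0.066 (SE), adjusted p = 1.32e-06), whereas CDKN2C, the p18 inhibitor, measured 70.99, 70.2 and 69.97 and 44.6, 43.7 and 42.2 CPM (log2 fold change -0.69 ± 0.05 (SE), adjusted p = 1.02e-08). All 3 separated the drugs completely, and CCND1 did so on opposite sides of DMSO. Of 31 p53 targets, 9 were higher and 4 lower, the latter 1 to 2 when any everolimus library was left out. The death receptor gene TNFRSF10B was higher with SGI-1027 by 0.43 and the nuclease gene AEN by 0.47.

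ATF4 target genes were higher with SGI-1027 than with everolimus. Of 45 tested, 36 were higher and none lower, against 13.0% and 9.51% of all tested genes. The median log2 fold change was 0.36 (0.39 without SGI-1027 replicate 3), and 1 member was a DEG. With everolimus 28 of the 45 were lower and 8 higher than DMSO (median -0.20), and with SGI-1027 21 were higher and 11 lower (median 0.16), in comparisons that share the DMSO libraries. Of all tested genes 29.2% were lower and 27.2% higher with everolimus, and 32.0% were higher and 30.6% lower with SGI-1027. The amino acid response element was found in 9 of 36 promoters of the list, against 1.72% of all promoters, and 4 of these are shown with TGATGNAA, read on either strand, in capitals.
AARS1: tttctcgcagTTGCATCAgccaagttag
ASNS: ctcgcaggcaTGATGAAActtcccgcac
ATF3: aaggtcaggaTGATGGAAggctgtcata
CHAC1: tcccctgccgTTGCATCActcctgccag

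These are at chr16:70289676-70289703 and chr7:97872459-97872486 on the minus strand and at chr1:212565206-212565233 and chr15:40953252-40953279 on the plus strand. WARS1, the tryptophanyl-tRNA synthetase, measured 197, 193 and 199 CPM with everolimus and 356, 352 and 375 CPM with SGI-1027 (log2 fold change 0.88 ± 0.04 (SE), adjusted p = 1.76e-11). WARS1 is induced by interferon as well, so it is not specific to ATF4. TRIB3, a pseudokinase that feeds back on ATF4, measured 58.99, 59.8 and 64.5 CPM with everolimus, 86.5, 89.7 and 97.7 CPM with DMSO and 119.7, 122 and 119 CPM with SGI-1027 (log2 fold change 0.98 ± 0.052 (SE), adjusted p = 1.3e-10). STC2, a secreted glycoprotein, measured 95.96, 97.6 and 102 and 162, 173 and 161 CPM (log2 fold change 0.75 ± 0.044 (SE), adjusted p = 6.17e-10). The groups did not overlap in these genes, and TRIB3 lay on opposite sides of DMSO. The 4 genes whose promoters are printed had log2 fold changes of 0.53 (AARS1), 0.61 (ASNS), 0.64 (ATF3) and 0.47 (CHAC1), all at an adjusted p under 0.05. By role, 9 of 12 tRNA synthetases, 8 of 10 amino acid synthesis genes and 5 of 7 transporters were higher.

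**Figure D3:**
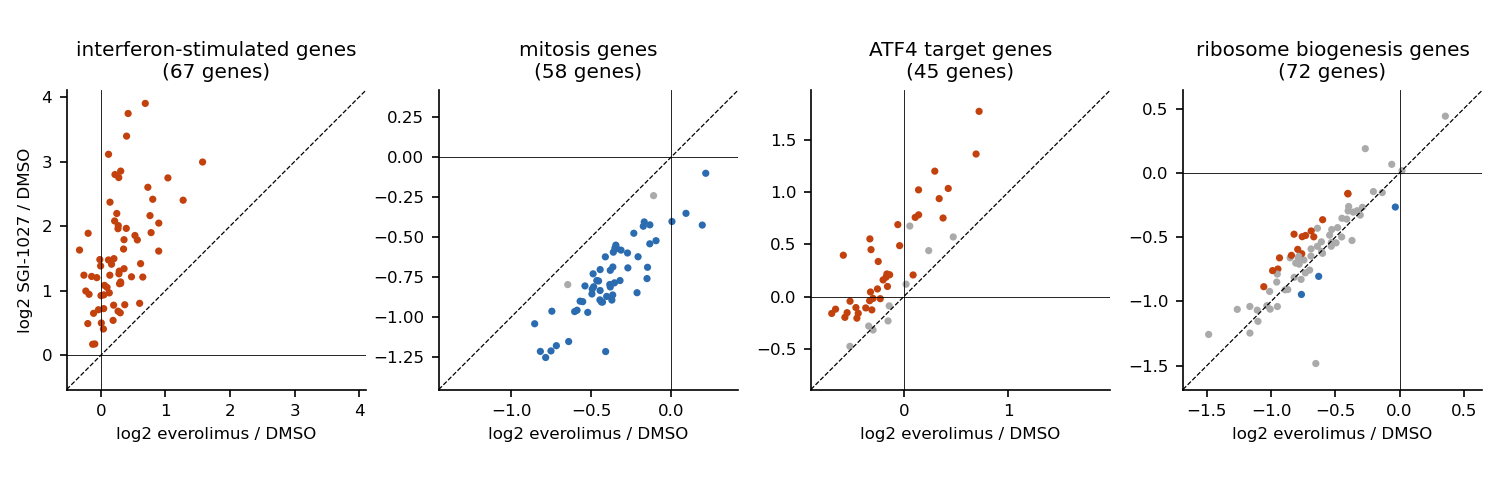
Log2 fold change over DMSO with everolimus (x axis) and with SGI-1027 (y axis) for the members of 4 lists; both axes share the DMSO libraries, and the dashed line marks equal values. Orange points were higher and blue points lower with SGI-1027 than with everolimus at an adjusted p under 0.05; the interferon-stimulated and ATF4 genes lie mostly above the line, the mitosis genes below it, and most of the 72 ribosome biogenesis genes near it, at negative values on both axes.

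Unfolded protein response genes did not share the ATF4 pattern. Of 28 tested, 4 were higher and 2 lower, against 13.0% and 9.51% of all tested genes, with a median of -0.0032. Without SGI-1027 replicate 3, 1 was lower, and without everolimus replicate 1 or 2, 0 were. HERPUD1, a factor of endoplasmic-reticulum-associated degradation, was higher by 0.30 (adjusted p = 6.8e-05) and the chaperone HSPA5 by 0.14 (adjusted p = 0.00551). Lipid synthesis was mixed. Of 32 cholesterol genes 9 were higher and none lower, and of 24 fatty acid genes 6 were higher and 1 lower (2 lower without DMSO replicate 1). Both counts fell when single libraries were left out. The cholesterol genes numbered 5 without SGI-1027 replicate 2 or everolimus replicate 1 and 4 without everolimus replicate 2. The fatty acid genes numbered 3 without SGI-1027 replicate 3, everolimus replicate 1 or everolimus replicate 2. SCD, the stearoyl-CoA desaturase, measured 274, 273 and 264 CPM with everolimus, 334, 381 and 390.4 CPM with DMSO and 434, 438 and 465 CPM with SGI-1027 (log2 fold change 0.72 ± 0.049 (SE), adjusted p = 5.07e-09). SREBF1, the gene of the lipogenic factor SREBP-1, measured 47.1, 46.5 and 50.8 and 70.1, 66.7 and 82.1 CPM (log2 fold change 0.60 ± 0.063 (SE), adjusted p = 1.5e-06). In SCD the DMSO libraries lay between the drugs.

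Of 29 tested hypoxia-inducible factor targets, 11 were higher and 5 lower with SGI-1027 (3 lower without everolimus replicate 1), with a median of 0.07. The shares of all tested genes were 13.0% higher and 9.51% lower. P4HA1, a collagen prolyl hydroxylase, was among the few genes raised by everolimus and lowered by SGI-1027: it measured 92.5, 91.7 and 91.8 CPM with everolimus, 57.99, 61.5 and 63.9 CPM with DMSO and 55.5, 51.9 and 50.5 CPM with SGI-1027 (log2 fold change -0.81 ± 0.048 (SE), adjusted p = 6.17e-10). CCND1 and STC2, given above, were the other members with the smallest p. Of 30 genes of glycolysis, the pentose phosphate pathway and glucose transport, 5 were higher and 9 lower (5 lower without everolimus replicate 1), and of the 19 glycolysis genes among them 2 were higher and 7 lower. HK2, a hexokinase, measured 29.8, 30.9 and 32.3 CPM with everolimus and 44.3, 41.1 and 40.1 CPM with SGI-1027 (log2 fold change 0.43 ± 0.057 (SE), adjusted p = 2.01e-05), both well under the 68.7, 74.9 and 74.9 CPM of DMSO. The glucose transporter gene SLC2A3 was higher with SGI-1027 by 0.53 and the neuronal enolase gene ENO2 by 0.34.

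ERK feedback genes, a list of 6 inhibitors and 4 phosphatases of ERK signalling and 6 transcription factors downstream of it, were mostly higher with SGI-1027. Of 16 tested, 10 were higher and 2 lower, against 13.0% and 9.51% of all tested genes, and 4 were DEGs. The median was 0.45 (0.38 without SGI-1027 replicate 3, which read 0.22 above its fellow replicates over these genes). ETV5, an ETS factor, measured 20.2, 17.5 and 19.00 CPM with everolimus and 33.4, 34.6 and 39.6 CPM with SGI-1027 (log2 fold change 0.93 ± 0.074 (SE), adjusted p = 3.89e-08). DUSP5, a nuclear ERK phosphatase, measured 30.2, 27.3 and 28.8 and 46.02, 42.6 and 50.9 CPM (log2 fold change 0.69 ± 0.067 (SE), adjusted p = 5.34e-07). DUSP4 measured 1.68, 1.47 and 1.65 and 3.40, 4.06 and 4.90 CPM (log2 fold change 1.37 ± 0.17 (SE), adjusted p = 1.16e-05). None of these groups overlapped.

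Immediate early genes were divided: of 12 tested, 3 were higher with SGI-1027, FOSB (0.85), FOSL1 (0.60) and EGR3 (1.18), and 4 were lower, EGR1, FOS, JUNB (-0.21) and IER3 (-0.22). EGR1 measured 47.9, 43.3 and 43.8 CPM with everolimus and 17.4, 18.6 and 27.96 CPM with SGI-1027 (log2 fold change -1.08 ± 0.14 (SE), adjusted p = 1.47e-05), and its 3 combination libraries 10.4, 10.4 and 9.52 CPM. FOS measured 2.41, 2.22 and 2.12 and 1.01, 0.975 and 1.54 CPM (log2 fold change -0.93 ± 0.24 (SE), adjusted p = 0.00878). SGI-1027 replicate 3 was the highest of its group in both, and without it the log2 fold changes were -1.32 and -1.18. Of 40 SRF and YAP targets, 9 were higher and 11 lower, against 13.0% and 9.51% of all tested genes. ANKRD1, a YAP target, was the largest in the other direction, at 5.92, 5.42 and 5.12 CPM with everolimus and 15.4, 16.7 and 17.95 CPM with SGI-1027 (log2 fold change 1.60 ± 0.089 (SE), adjusted p = 2.76e-10). Of 12 EGF receptor and ligand genes 4 were higher and 3 lower, with EGFR at 0.29 and the ligand gene EREG at -0.45.

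Of 79 tested lysosome genes, 34 were higher with SGI-1027 than with everolimus and 1 was lower (2 without SGI-1027 replicate 1 or 3, and 3 without DMSO replicate 1), with a median of 0.14 (0.13 without SGI-1027 replicate 3), and in the comparisons with the shared DMSO libraries 45 were higher and 10 lower with everolimus, and 56 were higher and 7 lower with SGI-1027. The shares of all tested genes higher and lower were 13.0% and 9.51% between the drugs. Against DMSO they were 27.2% and 29.2% with everolimus and 32.0% and 30.6% with SGI-1027. NEU1, the lysosomal sialidase, measured 59.99, 55.8 and 60.7 CPM with everolimus and 105, 101 and 98.5 CPM with SGI-1027 (log2 fold change 0.79 ± 0.044 (SE), adjusted p = 3.38e-10). LGMN, an asparaginyl endopeptidase, measured 120.1, 119.6 and 119.8 and 169, 175 and 190.0 CPM (log2 fold change 0.57 ± 0.045 (SE), adjusted p = 3.89e-08). CTSD, cathepsin D, measured 1592, 1477 and 1512 and 2122, 2144 and 2360.2 CPM (log2 fold change 0.53 ± 0.042 (SE), adjusted p = 3.94e-08). All 3 separated the drugs, but from different bases: LGMN with everolimus was at its DMSO level of 123, 119.7 and 116 CPM, whereas CTSD with everolimus was above its DMSO level of 935, 894 and 918 CPM.

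Autophagy, mTOR pathway and FOXO genes each held members in both directions, as did all tested genes (13.0% higher and 9.51% lower with SGI-1027). Of 42 autophagy genes 3 were higher and 8 lower (4 to 5 lower without SGI-1027 replicate 3 or any everolimus library). SQSTM1, the receptor p62, was higher with SGI-1027 at 809, 796 and 838 CPM against 636, 619 and 619 CPM (log2 fold change 0.38 ± 0.033 (SE), adjusted p = 1.23e-07), whereas GABARAPL1, an ATG8 family member and FOXO target, was lower at 66.2, 68.1 and 66.6 against 85.5, 84.9 and 79.1 CPM (log2 fold change -0.31 ± 0.047 (SE), adjusted p = 8.4e-05). Both genes were above DMSO with either drug. Of 41 mTOR pathway genes 9 were higher and 5 lower. Among the higher were FLCN, a regulator of the Rag GTPases (0.48), and its partner FNIP2 (0.90), which are also targets of the lysosomal factors TFEB and TFE3. MAPKAP1, a subunit of mTORC2, was lower (-0.26). Of 29 FOXO and insulin feedback genes 6 were higher and 5 lower (3 lower without everolimus replicate 2). IRS2, an insulin receptor substrate, was higher by 0.49, the ubiquitin ligase gene FBXO32 by 0.73 and IRS1 by 0.40.

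Ribosome biogenesis genes were mostly lower than DMSO with each drug, in comparisons that use the same DMSO libraries. Of 72 genes, 65 were lower with everolimus and 67 with SGI-1027, where 29.2% and 30.6% of all tested genes were, with medians of -0.69 and -0.60. Directly, 15 were higher and 3 lower with SGI-1027 than with everolimus, against 13.0% and 9.51% of all tested genes. WDR43, of the small subunit processome, measured 46.1, 47.1 and 45.4 CPM with everolimus and 59.9, 55.5 and 60.5 CPM with SGI-1027 (log2 fold change 0.34 ± 0.044 (SE), adjusted p = 1.61e-05), both under the 80.6, 81.9 and 82.3 CPM of DMSO. Of 31 heat shock chaperone genes, 27 were lower than the same DMSO libraries with everolimus and 28 with SGI-1027, against 29.2% and 30.6% of all tested genes. Between the drugs 1 was higher and 5 were lower with SGI-1027. HSP90AA1 measured 1277, 1295 and 1288 and 1160.0, 1131 and 1070.5 CPM (log2 fold change -0.20 ± 0.039 (SE), adjusted p = 0.00119), against 2133, 2309.8 and 2222 CPM with DMSO.

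Counts over ribosomal protein and oxidative phosphorylation genes changed when single libraries were left out. Of all tested genes 13.0% were higher with SGI-1027 and 9.51% (1221) were lower. The number lower also fell, to 773, 846 and 850 without everolimus replicates 1, 2 and 3. Of 78 cytosolic ribosomal protein genes 11 were lower with SGI-1027 and none was higher, but 2 were lower without SGI-1027 replicate 3, 1, 6 and 4 without everolimus replicates 1, 2 and 3, 21 without SGI-1027 replicate 2 and 18 without DMSO replicate 1. Of 77 oxidative phosphorylation genes 24 were lower and none higher, but 9 without SGI-1027 replicate 3 and 9, 14 and 13 without everolimus replicates 1, 2 and 3. SGI-1027 replicate 3 read 0.20 and 0.19 below its fellow replicates over these lists, whose median transcript lengths are 1180 and 1260 bases. Over the fifth of genes with the shortest transcripts (359 to 2040 bases) it read 0.041 lower. The cause of the lower reading over the lists was not tested. The median log2 fold changes of the lists moved from -0.13 to -0.056 and from -0.16 to -0.088 without this library. Of 77 mitochondrial ribosomal protein genes 1 was higher and 9 lower, the latter near the 9.51% of all tested genes. Without SGI-1027 replicate 2 or 3 or everolimus replicate 2 or 3 none was higher, and 5 and 4 were lower without everolimus replicates 1 and 3. COX8A, a subunit of cytochrome c oxidase, kept its call without that SGI-1027 library (-0.22 with it, -0.19 without), whereas EEF1A1, the elongation factor, did not (adjusted p = 0.034 with it and 0.107 without).

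The RNA levels of the drugs' own targets did not separate the drugs strongly. Protein amount and activity of the targets cannot be read from these libraries. DNMT1, the maintenance methyltransferase, measured 151, 155 and 156 CPM with everolimus and 163, 154 and 166 CPM with SGI-1027 (log2 fold change 0.065 ± 0.038 (SE), adjusted p = 0.24), both below the 251, 246 and 239 CPM of DMSO. FKBP1A measured 329, 337 and 319.9 and 308, 317 and 319 CPM (log2 fold change -0.062 ± 0.037 (SE), adjusted p = 0.243), and DNMT3A 14.00, 13.97 and 14.9 and 14.2, 14.6 and 12.7 CPM (log2 fold change -0.046 ± 0.079 (SE), adjusted p = 0.716). These 3 missed the threshold, and the libraries of DNMT1 and DNMT3A overlapped. MTOR was lower with SGI-1027 by a small amount (log2 fold change -0.15 ± 0.038 (SE), adjusted p = 0.00921) and DNMT3B higher (log2 fold change 0.33 ± 0.071 (SE), adjusted p = 0.00248). Of 14 DNA methylation genes 2 were higher and 1 lower (0 lower in 5 of the 6 fits without 1 library), against 13.0% and 9.51% of all tested genes. Cancer-testis and methylation-silenced genes are commonly re-expressed when DNA methylation is lost. Of 36 such genes in the count table only 12 passed the expression filter and were tested. Of these 12, 2 were higher, PRAME (0.25) and SFRP2 (1.57, at under 1 CPM), and 2 lower, GSTP1 (-0.18) and MAGEA3 (-0.20), of which 1 passed without SGI-1027 replicate 3 or everolimus replicate 3. MAGEA3 has a close copy, MAGEA6, so its reads may be shared.

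**Figure D4:**
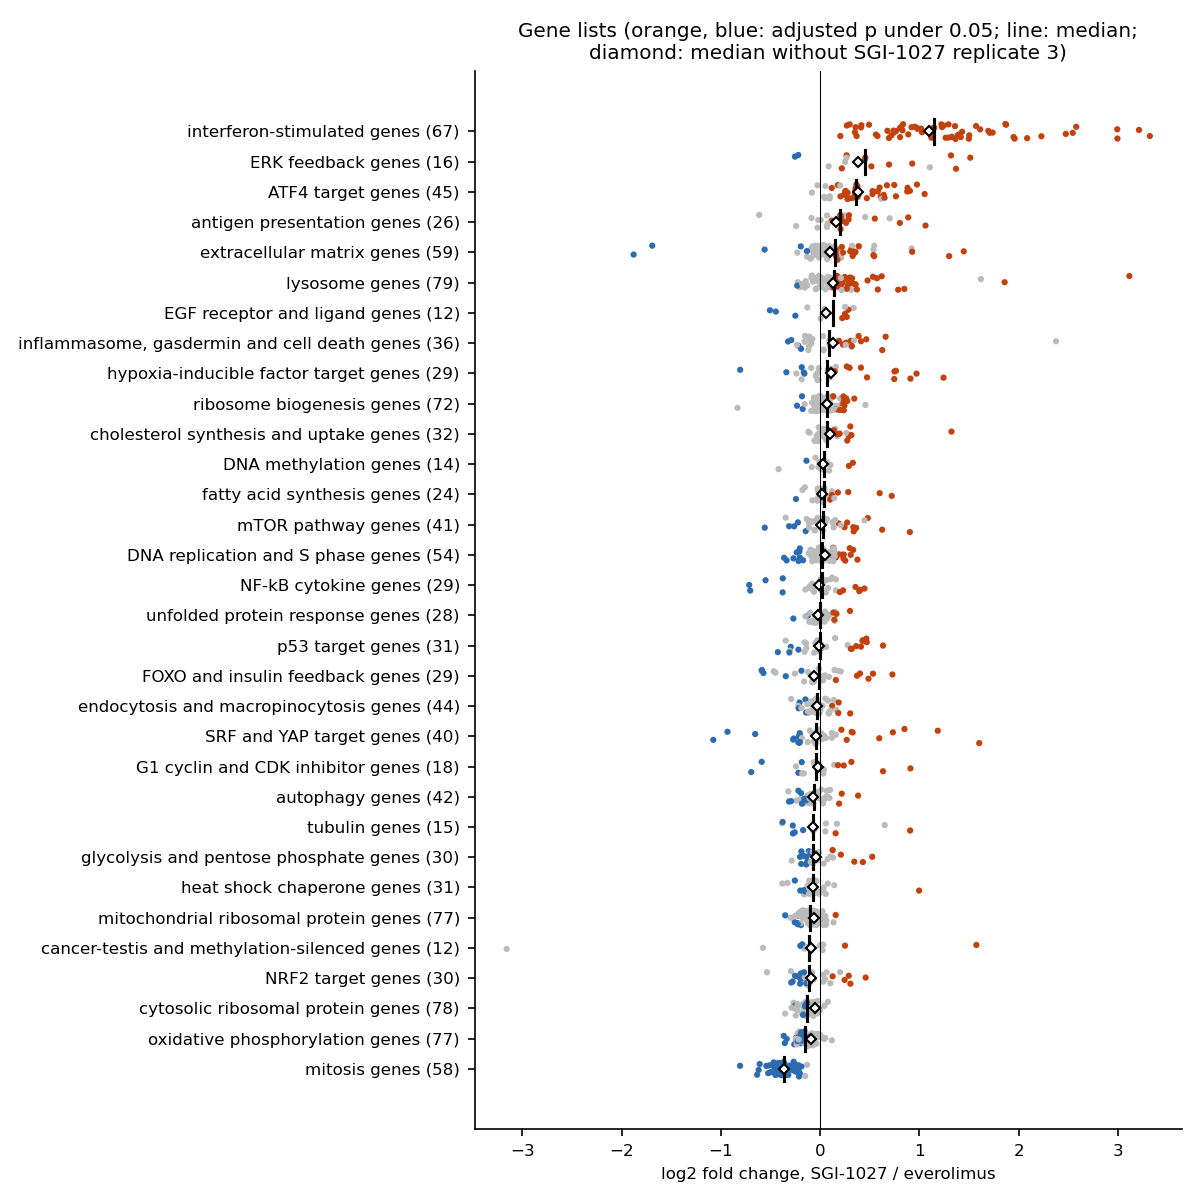
Log2 fold change of SGI-1027 over everolimus (x axis) for the tested members of 32 gene lists (y axis, number tested in parentheses), ordered by median. Orange and blue points passed an adjusted p under 0.05, lines are medians and diamonds are medians without SGI-1027 replicate 3; interferon-stimulated genes (median 1.15) and mitosis genes (median -0.37) are at the ends.

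Cell death, cytokine, NRF2 and endocytosis lists had medians between -0.11 and 0.0945. Their counts stand beside 13.0% higher and 9.51% lower with SGI-1027 among all tested genes. Of 36 inflammasome, gasdermin and cell death genes 10 were higher and 4 lower (2 lower without everolimus replicate 3). The largest log2 fold change was in HRK (2.38), a scarce BCL2 family gene that was a DEG but missed the adjusted threshold (adjusted p = 0.0545). The smallest p was that of NLRP1, an inflammasome sensor, at 9.84, 12.2 and 11.4 CPM with everolimus and 17.95, 17.1 and 17.9 CPM with SGI-1027 (log2 fold change 0.66 ± 0.087 (SE), adjusted p = 2.02e-05). The survival gene BCL2L1 (0.31) and the pro-apoptotic gene PMAIP1 (0.41) were both higher. Of 29 NF-kB cytokine genes 6 were higher and 5 lower. CXCL5, a neutrophil chemokine, measured 499, 479 and 473 CPM with everolimus, 354, 391 and 432 CPM with DMSO and 311, 316 and 263 CPM with SGI-1027 (log2 fold change -0.70 ± 0.065 (SE), adjusted p = 2.7e-07), whereas TNFAIP3, the feedback inhibitor A20, was higher with SGI-1027 by 0.45. Of 30 NRF2 targets 5 were higher and 9 lower, with NQO1 at -0.29 and ABCC3 at 0.30. Of 44 endocytosis and macropinocytosis genes 4 were higher and 4 lower, with 1 and 2 higher without everolimus replicates 2 and 3. AP2B1 and AP2M1, subunits of the clathrin adaptor, were lower (log2 fold changes -0.21 and -0.15), and VAC14, the scaffold of the PIKfyve complex, was higher by 0.30.

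Extracellular matrix genes and the cytoskeleton gave some of the largest differences in amount. Of 59 matrix genes 21 were higher and 5 lower with SGI-1027, against 13.0% and 9.51% of all tested genes. MMP1, interstitial collagenase, had the most negative log2 fold change among well-counted genes without a near-identical copy, at 13.9, 15.5 and 14.6 CPM against 4.06, 4.20 and 5.34 CPM with SGI-1027 (log2 fold change -1.69 ± 0.12 (SE), adjusted p = 7.41e-09). Its DMSO libraries read 5.10, 5.85 and 6.96 CPM and its combination libraries 9.59, 9.83 and 11.1 CPM, above either DMSO or SGI-1027. FN1, fibronectin, was higher with SGI-1027 at 39329, 40108 and 43688 CPM against 35935, 34338 and 35532 CPM (log2 fold change 0.22 ± 0.038 (SE), adjusted p = 0.000332), and the ferritin gene FTH1 at 4592, 4504 and 5439 against 4255, 3934 and 4061 CPM (log2 fold change 0.25 ± 0.057 (SE), adjusted p = 0.00432). Both were higher with everolimus than with DMSO as well. ACTB and ACTG1, the cytoplasmic actins, were lower with SGI-1027 (log2 fold changes -0.21 and -0.26). Of 15 tubulin genes 2 were higher (1 without SGI-1027 replicate 3, everolimus replicate 1 or everolimus replicate 2) and 5 lower, with TUBB4B at 1278, 1222 and 1273 CPM and 948, 986 and 970.1 CPM (log2 fold change -0.38 ± 0.032 (SE), adjusted p = 8.73e-08). Close copies exist for FTH1, the actins, the tubulins and EEF1A1, so reads may be shared among them.

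Few of the genes higher with everolimus were DEGs: 23 of the 1221 that passed an adjusted p under 0.05. In all, 34 of the 12841 tested genes were DEGs in this direction. SYTL2, a Rab27 effector, measured 37.9, 39.2 and 35.7 CPM with everolimus and 15.4, 14.5 and 13.2 CPM with SGI-1027 (log2 fold change -1.39 ± 0.075 (SE), adjusted p = 1.85e-10), with DMSO higher still at 58.4, 54.8 and 49.5 CPM. HHIP, an inhibitor of hedgehog ligands, measured 4.22, 4.71 and 4.05 and 2.17, 1.79 and 1.90 CPM (log2 fold change -1.15 ± 0.17 (SE), adjusted p = 5.64e-05), with its everolimus libraries overlapping DMSO (3.97, 4.35 and 4.53 CPM). ODAPH, which fell short of the fold threshold of a DEG, measured 7.97, 9.09 and 9.75 and 4.54, 5.50 and 3.74 CPM (log2 fold change -0.96 ± 0.15 (SE), adjusted p = 0.000101), both above its DMSO libraries. Relative to DMSO, everolimus was thus lower in SYTL2, overlapping in HHIP and higher in ODAPH. GPR15, a chemoattractant receptor, had a log2 fold change of -1.02. SULT1A4 and RGPD6, which had the most negative values among well-counted genes (-2.70 and -1.73), and CBSL, which had the most positive (3.89), belong to near-identical gene copies (CBSL read 6.58, 0.596 and 5.57 CPM with SGI-1027, a wide spread), so their values are uncertain.

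The position of the DMSO libraries was compared with those of the drugs. Of the 1663 genes higher with SGI-1027, 1636 had libraries of the drugs that did not overlap. DMSO lay below both drugs in 573 of these, above both in 189, between them in 106, and overlapped the everolimus libraries alone in 427 and the SGI-1027 libraries alone in 274. Of the 1221 genes higher with everolimus, 1200 did not overlap. DMSO lay above both drugs in 531 of these, below both in 130 and between them in 42. Each drug differed from DMSO at an adjusted p under 0.05 in opposite directions in 69 genes that were lower with everolimus and higher with SGI-1027, and in 18 genes with the reverse. Without SGI-1027 replicate 3 DMSO lay between the drugs in 120 and 56 genes, and without DMSO replicate 1 in 184 and 87. The genes in opposite directions were 69 and 24 without the first and 67 and 14 without the second.

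In well-counted DEGs with DMSO wholly between the drugs, the largest differences were in ADAMTS14, a procollagen protease, at 0.459, 0.464 and 0.366 CPM with everolimus, 0.671, 0.559 and 0.55 CPM with DMSO and 2.09, 3.14 and 3.05 CPM with SGI-1027 (log2 fold change 2.67 ± 0.27 (SE), adjusted p = 7.36e-07). USP18 and SAMHD1, given above, CLGN, a testis chaperone (1.58), and SULF2, a heparan sulfate sulfatase (1.47), followed. ATOH8, a basic helix-loop-helix factor, was the single such gene in the other direction, with 13.3, 9.75 and 12.7 CPM with everolimus, 8.43, 6.24 and 6.34 CPM with DMSO and 5.72, 5.20 and 5.95 CPM with SGI-1027 (log2 fold change -1.08 ± 0.13 (SE), adjusted p = 1.06e-05). Its everolimus libraries stood above DMSO and its SGI-1027 libraries just below it.

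The combination libraries entered the filter and the estimate of spread but not the contrast of the drugs, and they overlapped SGI-1027 more often than everolimus. Of the 1636 non-overlapping genes higher with SGI-1027, the combination libraries overlapped those of SGI-1027 alone in 677 and those of everolimus alone in 161, lay above both drugs in 583, between them in 101 and below both in 66. Of the 1200 higher with everolimus, they overlapped SGI-1027 alone in 633 and everolimus alone in 95, lay below both drugs in 353, between them in 58 and above both in 10. SGI-1027 replicate 3 widened the range of its group. Without it, 681 of 1392 genes lay above both and 377 overlapped SGI-1027, and in the other direction 448 of 995 lay below both and 350 overlapped SGI-1027.

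**Figure D5:**
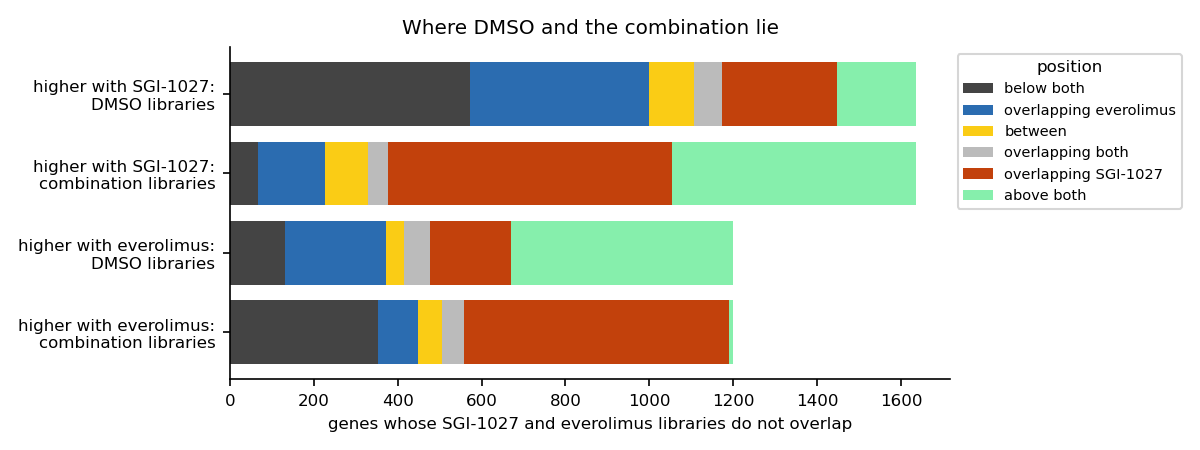
Numbers of genes (x axis) by where the DMSO or the combination libraries lie relative to the everolimus and SGI-1027 libraries, for 1636 genes higher with SGI-1027 and 1200 higher with everolimus at an adjusted p under 0.05 whose libraries do not overlap. Overlap with SGI-1027 or a position beyond it makes up most of the combination bars (677 and 583 genes in one direction, 633 and 353 in the other).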

How the data were processed

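RNA sequencing of 786-O cells was analysed in 4 groups of 3 libraries. The authors deposited raw counts per gene symbol, which are whole numbers and not normalized, and FPKM values that the authors scaled by gene length and library size. The submitters' processing notes name the mouse builds GRCm38 and mm10 although the symbols are human; aligner, counter and annotation are not given in the sources used here, and the labels and the paper's methods name different RNA and library kits. Counts were fitted in edgeR 4.0.16 (R 4.3.3) with filterByExpr on the 4 groups, TMM factors, a prior count of 0.125 and the quasi-likelihood test of SGI-1027 minus everolimus over all 12 libraries. Benjamini-Hochberg adjustment covered the 12841 tested genes, and lists were counted at an adjusted p under 0.05. Normalized CPM were used for levels. Scripts were tested on simulated data.

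The 6 libraries, the gene lists and the named genes' rule were chosen with earlier results of these data known. Named genes were the 10 largest differences in each direction (called after adjustment, averaging 50 or more counts, no overlap), the 3 smallest p of each list, up to 5 DEGs in each direction with DMSO between the drugs, the 3 largest CPM differences in each direction, and 5 drug target genes; not every gene so named is printed. Other genes, among them FOSB, FOSL1, EGR3, JUNB, IER3, HRK, MAGEA3 and the genes of printed promoters that the rule did not name, were chosen after their values were seen. Promoters are those of RefSeq (GRCh38.p14), 250 bases before to 50 after the start, found for 10378 tested genes; for 3074 genes with several starts the farthest 5′ was used. Elements searched on both strands were the interferon-stimulated response element (GAAA repeated after any 2 bases), the heat shock element, the sterol regulatory element (TCACNCCAC), the CLEAR element (TCACGTGA), the E-box (CACGTG, which lies inside CLEAR), the amino acid response element (TGATGNAA), the cyclic AMP response element (TGACGTCA), the FOXO element (GTAAACA), the CCAAT box, the E2F element (TTCCCGCC) and the antioxidant response element (TGACNNNGC). GENCODE 29 transcripts gave length and GC content for 98.1% of 11499 well-counted genes. Alternatives were DESeq2 1.42.0, upper-quartile factors, other filters, the 6 libraries alone, a replicate block, limma 3.58.1 on log2(FPKM + 1) and log2(FPKM + 0.1), leaving out each of the 6 libraries and, added after seeing the data, leaving out DMSO replicate 1.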

Additional observations from a re-analysis of the deposited data

How the results depend on the processing

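Every gene the rule named that passed with all libraries kept its direction in each alternative that could test it. An adjusted p under 0.05 was lost in 34 values, in CBSL, RGPD6, MBD3, EEF1A1, DES, RPL10A, RPLP0, MANF and MRPL53. The values compared were 1885 over all 126 named genes, among them FKBP1A, DNMT1 and DNMT3A, which had not passed and so could not lose a call. The numbers of DEGs, 196 higher with SGI-1027 and 34 higher with everolimus, changed with the filter on low counts: without one they were 279 and 94, and with at least 10 counts in every library 101 and 13. With limma they were 36 and 3 on log2(FPKM + 1) and 97 and 8 on log2(FPKM + 0.1), fits that differ in input, scaling and test as well as pseudocount, and the cause was not tested. Over the fits that left out 1 library the DEGs ranged from 186 to 222 and from 37 to 45, and the genes at an adjusted p under 0.05 from 1229 to 1876 higher and from 773 to 1355 lower with SGI-1027. Of the latter counts, the lowest were without everolimus replicate 1 and the highest without DMSO replicate 1, which was added after seeing the data. DESeq2 gave 1630 and 1415, and upper-quartile factors 1471 and 1493. Replicate numbers did not pair the libraries: same-numbered SGI-1027 and everolimus libraries had deviations correlated at -0.013, -0.0069 and 0.020, and with the number as a replicate block the counts were 196 and 32 DEGs and 1542 and 1049 adjusted calls. Of 1020 list counts under the alternatives, 88 moved by more than 1.5 times. Counting error limits what this depth can show for scarce genes.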

Other observations

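Several genes outside the lists, or not named by the rule, also separated the drugs; they were chosen after their values were seen and are given as values. The pregnancy-specific glycoprotein genes PSG1, PSG3, PSG5 and PSG9, a family of closely similar copies whose reads may be shared, were all higher with SGI-1027, with log2 fold changes of 2.31, 1.78, 1.77 and 1.62. PSG5, the most abundant of them, measured 0.811, 0.464 and 0.523 CPM with everolimus and 1.79, 1.98 and 2.33 CPM with SGI-1027 (log2 fold change 1.77 ± 0.26 (SE), adjusted p = 5.92e-05), against 0.188, 0.146 and 0.0524 CPM with DMSO. ID1, a helix-loop-helix inhibitor of transcription factors, measured 83.5, 81.6 and 83.6 CPM with everolimus and 48.7, 52.99 and 48.7 CPM with SGI-1027 (log2 fold change -0.73 ± 0.065 (SE), adjusted p = 1.72e-07), ID3 was lower likewise (log2 fold change -0.88 ± 0.058 (SE), adjusted p = 2.66e-09), and NOG, the secreted antagonist noggin, measured 4.24, 3.88 and 4.18 CPM with everolimus, 7.14, 6.07 and 7.20 CPM with DMSO and 9.68, 8.62 and 9.70 CPM with SGI-1027 (log2 fold change 1.19 ± 0.10 (SE), adjusted p = 9.31e-08). ID1 and ID3 were thus lower, and NOG higher, with SGI-1027.

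EPAS1, which encodes HIF2α, the oncogenic factor of VHL-deficient renal carcinoma, measured 155, 146 and 154 CPM with everolimus, 175, 168 and 165 CPM with DMSO and 246, 239 and 279 CPM with SGI-1027 (log2 fold change 0.75 ± 0.051 (SE), adjusted p = 4.36e-09). VEGFA, a target of both HIF and ATF4, measured 315, 312 and 312 CPM with everolimus, 415, 383 and 369 CPM with DMSO and 521, 504 and 568 CPM with SGI-1027 (log2 fold change 0.76 ± 0.046 (SE), adjusted p = 8.69e-10). Both genes lay on opposite sides of DMSO with the drugs, as CCND1 did. IGFBP3, an insulin-like growth factor binding protein, measured 524, 478 and 491 CPM with everolimus and 956, 937 and 1034 CPM with SGI-1027 (log2 fold change 0.97 ± 0.046 (SE), adjusted p = 3.29e-11), and its combination libraries 762, 710.1 and 688 CPM lay between the drugs. MMP13, a second collagenase, measured 2.08, 1.78 and 1.52 CPM with everolimus and 0.378, 0.515 and 0.564 CPM with SGI-1027 (log2 fold change -1.88 ± 0.30 (SE), adjusted p = 0.000169), at fewer than 50 counts in the mean. Unlike MMP1, its combination libraries 0.156, 0.251 and 0.315 CPM were below those of SGI-1027.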
